A study of Mus with 3 samples.

Results

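The 7 genes described here are 6 inhibitory receptor genes of T cells, Pdcd1, Havcr2, Lag3, Tigit, Ctla4 and Cd160, and the nuclear factor gene Tox. They were given as a list of names, and they are 7 of the 32285 genes in the count matrix. They were followed in T cells of MC38 tumors (a mouse colon cancer line) collected on day 16 from wild-type mice (WT), mice in which dLck-Cre deleted part of Rara in T cells (Rara L/L, called RARα-KO) and mice with a Rara transgene under the CD2 promoter (RARα-TG). Both promoters act in T cells at large, so CD8 T cells, conventional CD4 T cells and regulatory T cells could all carry the change. For each genotype the tumor suspension was tagged with a hashtag antibody (C0301, C0302 and C0303), 30000 T cells (CD45.2+ CD3+) were taken by sorting and 10000 tumor cells from before the sort were put back, and the 3 suspensions were run as 1 pooled 10x 5′ library with T cell receptor sequencing. There was 1 sample per genotype. Both C57BL/6 and dLck-Cre mice served the study as WT controls, while the sources used here name neither the strain of this sample nor how many mice stood behind each genotype. The labels also name spleen and naive CD8 cells activated in culture, whereas the cells held myeloid cells and MC38 or stromal cells beside T cells, as a tumor does.

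Inhibitory receptors are surface proteins that dampen signaling through the T cell receptor, and activated T cells carry them for a short time while T cells that meet antigen for long carry several of them at once. PD-1, encoded by Pdcd1, binds PD-L1 and PD-L2 and recruits phosphatases to the activated receptor complex. TOX is a DNA-binding protein needed for the lasting dysfunctional state of CD8 T cells in chronic infection and tumors, and regulatory T cells, which carry Foxp3, use CTLA-4 and TIGIT as part of their suppressive equipment.

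Positions are given in GRCm38.p6, the assembly of the RefSeq gene table, and span the whole gene. Pdcd1 (ENSMUSG00000026285, chr1:94038305-94052553) encodes PD-1 and shares chromosome 1 with Ctla4 (ENSMUSG00000026011, chr1:60909025-60915832), whose product CTLA-4 competes with CD28 for CD80 and CD86. Havcr2 (ENSMUSG00000020399, chr11:46454931-46481255) encodes TIM-3, a receptor of galectin-9 and other ligands. Lag3 (ENSMUSG00000030124, chr6:124904359-124912434) encodes a CD4-related receptor that binds MHC class II. Tigit (ENSMUSG00000071552, chr16:43626137-43665125) encodes a receptor that shares the ligands PVR and Nectin-2 with the activating receptor CD226. Cd160 (ENSMUSG00000038304, chr3:96798763-96829351) encodes a receptor of HVEM found mostly on CD8 T cells and natural killer cells. Tox is at ENSMUSG00000041272, chr4:6686353-6991557.

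The matrix gave 5585 cells, of which 4925 carried 1 hashtag and 3955 of those lay in T cell clusters (1451 WT, 1720 RARα-KO, 784 RARα-TG). A CD8 cell held a Cd8a UMI and no Cd4 UMI (843 WT, 1180 RARα-KO and 113 RARα-TG cells, median 5667, 5562 and 4680 UMIs). A CD4 cell held a Cd4 UMI and neither Cd8 gene, and was split by a Foxp3 UMI into Foxp3 negative (95, 166 and 111 cells) and Foxp3 positive cells (120, 79 and 150 cells). Rara was at 85.3, 78.4 and 191 CPM (UMIs per 1000000 gene UMIs of the same cells) in CD8 cells of WT, RARα-KO and RARα-TG. The transgene was thus seen, whereas reads from the 5′ end cannot check a deletion inside the gene. Of 1730 cells in 104 clonotypes of 5 or more cells, 3 carried a hashtag other than that of most of their clonotype, and 249 doublets within a genotype were estimated and could not be removed. The count over clonotypes could hold few RARα-TG CD8 cells, of which 13 lay in clonotypes of 2 to 9 and none in larger ones. Among CD8 cells, 1134 of 1180 (RARα-KO), 55 of 113 (RARα-TG) and 17 of 843 (WT) had 90% or more of their hashtag UMIs from 1 hashtag, so the WT hashtag stood over a background of the others. The summed myeloid markers were at 93.2, 53.0 and 563 CPM in CD8 cells. In RARα-TG most of this was Fcer1g (224 UMIs in 14 cells) and Tyrobp (103 UMIs in 8 cells), and without both genes the sums were 20.7, 26.3 and 19.9 CPM. Summed MC38 or stromal markers were at 8.02, 12.7 and 58.1 CPM and B cell markers at 11.05, 8.03 and 49.8 CPM (35 and 30 UMIs in RARα-TG), and T cell markers at 7956, 8429.7 and 6113 CPM. Their part in the results was not tested. Parentheses after a level, share or log2 ratio hold its 95% interval, which covers counting error only: a single sample stood for each genotype, so nothing was tested, and genotype, mouse and hashtag cannot be told apart.

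In CD8 cells of RARα-KO, Pdcd1 was lower than in WT, whereas 4 of the other receptors, Havcr2, Lag3, Tigit and Ctla4, were higher. Tox was lower as well, from few UMIs, and Cd160 was not separated from WT. Pdcd1 was at 797 CPM (773 to 820.3) in WT and 440.3 CPM (426 to 455) in RARα-KO, a log2 ratio of -0.86 (-0.92 to -0.79). A Pdcd1 UMI was found in 79.4% of WT cells against 66.9% in RARα-KO, and in 47.1% and 31.2% once each cell was thinned to 1000 UMIs. Among 6605 genes that reached 0.1 UMIs per cell in either group, the Pdcd1 ratio lay at percentile 1.60.

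Havcr2 was at 160.0 CPM (149.7 to 171) in WT and 301.9 CPM (290.1 to 314) in RARα-KO, a log2 ratio of 0.92 (0.81 to 1.03) at percentile 98.4 of the same genes. The share of cells with a Havcr2 UMI was 44.1% and 61.1%, the only member beside Ctla4 for which the share differed by more than 10 percentage points in favor of RARα-KO. Ctla4 was at 187 CPM (176 to 199) and 288 CPM (277 to 300.1), a log2 ratio of 0.62 (0.52 to 0.73). Both receptors thus stood higher in RARα-KO in the level and in the share of cells. Lag3 was at 482 CPM (464 to 500.1) and 638 CPM (620.5 to 655), a log2 ratio of 0.41 (0.34 to 0.47). Tigit was at 310.0 CPM (296 to 325) and 380.3 CPM (367 to 394), a log2 ratio of 0.29 (0.21 to 0.38). These were smaller differences, with intervals clear of 0. Cd160 had a log2 ratio of 0.13 (-0.051 to 0.30), so the sequencing did not separate the genotypes. Tox rested on 84 UMIs in WT, 15 CPM (11.9 to 18.5), and 36 in RARα-KO, 4.45 CPM (3.11 to 6.15), a log2 ratio of -1.75 (-2.36 to -1.17). It was the member with too few UMIs for the minimum of 0.1 per cell, and it was seen in 7.83% and 2.54% of cells.

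The 7 members counted 5 higher and 2 lower, with 1 of them (Tox) past 2-fold and a median log2 ratio of 0.29. Over all genes tested 2.6% were past 2-fold in either direction, and the median was 0.016. Without the cluster of cells with the highest Gzmf the log2 ratio was -0.57 for Pdcd1 and 0.98 for Lag3, and with each clonotype weighted equally it was 1.49 for Havcr2 and 0.062 for Tigit.

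**Figure D1:**
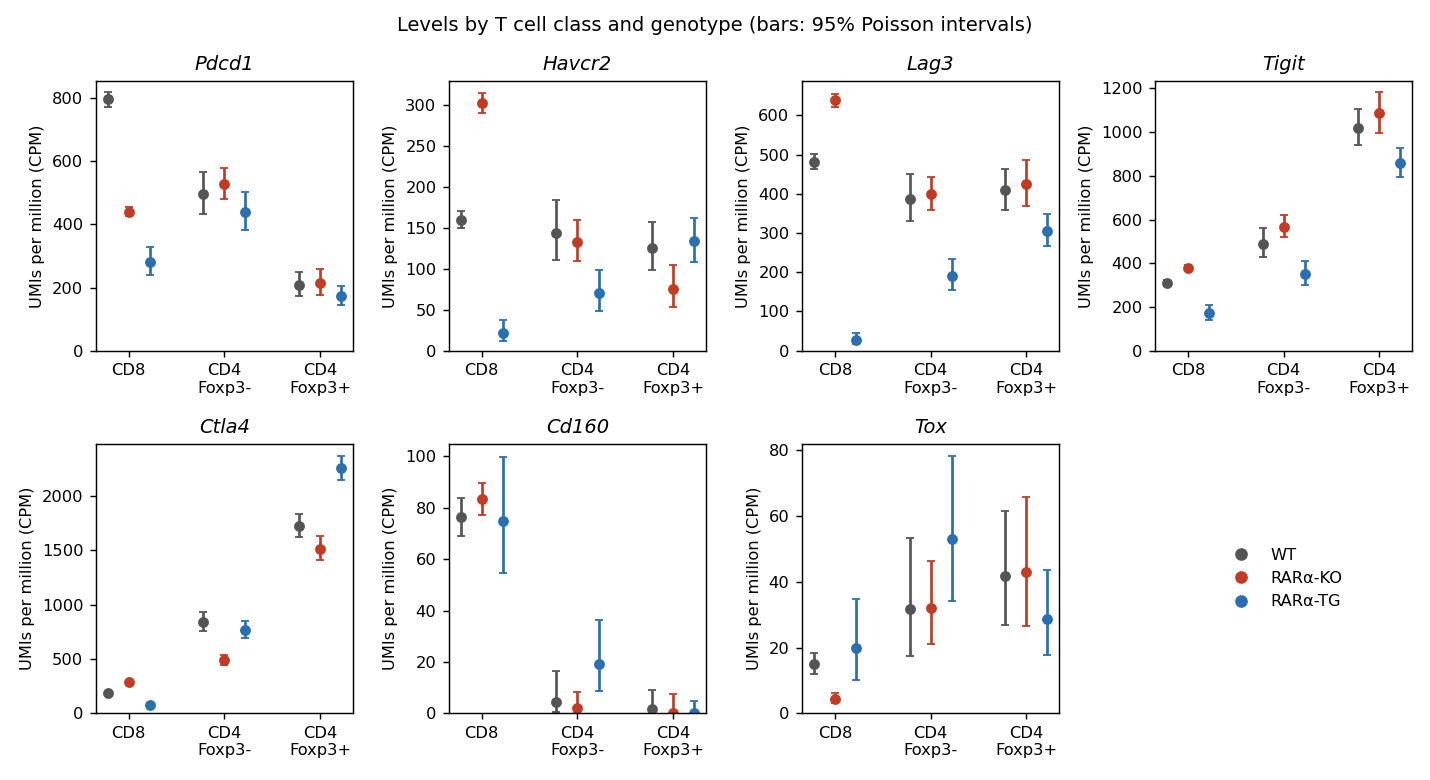
Level of each member (CPM, linear axes from 0) in CD8, CD4 Foxp3 negative and CD4 Foxp3 positive T cells of WT, RARα-KO and RARα-TG, 1 sample each. Bars are 95% Poisson intervals of the UMI sums. Pdcd1 is highest in WT CD8 cells (797 CPM) and Lag3 is lowest in RARα-TG CD8 cells (28.2 CPM).

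CD8 cells of RARα-TG, of which there were 113, held far fewer transcripts of most of the receptors. Lag3 lay furthest below WT, with 17 UMIs or 28.2 CPM (16.4 to 45.2), a log2 ratio of -4.09 (-4.88 to -3.41). A Lag3 UMI was seen in 7.08% of RARα-TG cells against 67.3% in WT. Havcr2 was at 21.6 CPM (11.5 to 36.9), from 13 UMIs, a log2 ratio of -2.89 (-3.81 to -2.11). Pdcd1 was at 282 CPM (241 to 328), with a log2 ratio of -1.50 (-1.73 to -1.28). So Pdcd1 was below WT in both altered genotypes, whereas Havcr2 and Lag3 were above WT in one and below it in the other. Ctla4 was at 74.7 CPM (54.5 to 99.9), a log2 ratio of -1.33 (-1.79 to -0.90). Tigit was at 173 CPM (141 to 209), a log2 ratio of -0.85 (-1.14 to -0.56). For Ctla4 the direction depended on the gate: with cells that held Cd8b1 but no Cd8a added, the log2 ratio was 0.75, and 19 of those 53 RARα-TG cells held a Foxp3 UMI. Cd160 at -0.03 and Tox at 0.41 (-0.60 to 1.29) were not separated from WT, Tox resting on 12 UMIs. The 7 members counted 6 lower and 1 higher, 4 of them lower by 2-fold or more (Pdcd1, Havcr2, Lag3 and Ctla4), with a median log2 ratio of -1.33. Over 6597 genes tested 10.4% were past 2-fold, with a median of 0.0078. Both comparisons share the WT cells.

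**Figure D2:**
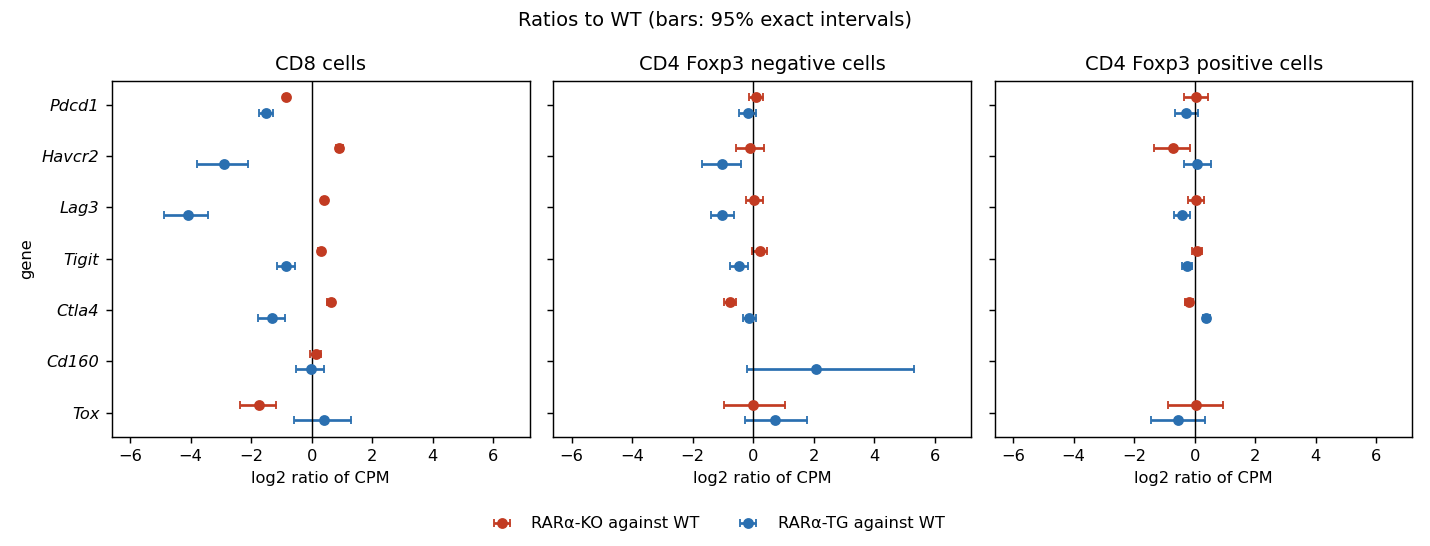
Log2 ratio of each member against WT in CD8, CD4 Foxp3 negative and CD4 Foxp3 positive cells, for RARα-KO and RARα-TG, with 95% intervals for counting error. In CD8 cells Pdcd1 lies below 0 in both genotypes (-0.86 and -1.50), and Havcr2 lies above 0 in RARα-KO (0.92) and below 0 in RARα-TG (-2.89).

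Genes that act with the members were counted by lists. Of 18 transcription factor genes tied to T cell dysfunction 14 passed the minimum in CD8 cells of RARα-KO or WT, 10 higher and 4 lower, with a median log2 ratio of 0.26. The highest were Prdm1 at 1.88 (1.47 to 2.31), which encodes the repressor Blimp-1, the T-box gene Eomes at 1.44 (1.06 to 1.84) and Irf4 at 1.03 (0.81 to 1.26). The lowest were Ikzf2 at -1.93 (-2.14 to -1.73), which encodes Helios, Nr4a2 at -0.14 (-0.25 to -0.028) and Bhlhe40 at -0.14 (-0.20 to -0.068). Prdm1, Eomes and Irf4 thus lay on the side of Havcr2 and Lag3, and Ikzf2 on the side of Tox. Of 12 other inhibitory receptor genes 6 passed, 4 higher and 2 lower, led by Vsir at 1.26 (1.07 to 1.45), which encodes VISTA, Klrg1 at 0.92 (0.49 to 1.36) and Cd101 at 0.24 (-0.079 to 0.57). Cd96 at -0.12, Cd5 at -0.054 and Klrc1 at 0.079 were lowest. The 12 signal partner genes all passed, 5 higher and 7 lower, and none was past 2-fold. The adaptor gene Sh2d1a at 0.31, the ubiquitin ligase gene Cblb at 0.30 and Grap2 at 0.28 were highest. The phosphatase gene Ptpn6 at -0.27 (-0.46 to -0.092), which encodes SHP-1, was lowest, before Bag6 at -0.18 and Inpp5d at -0.14. None of these signal partners differed as far as Pdcd1 or Havcr2 did. Of 12 ligand genes 7 passed in CD8 cells, 4 higher and 3 lower: Cd86 at 0.34, Cd80 at 0.27 and Lgals9 at 0.14 were highest, and Pdcd1lg2 at -0.51 (-0.71 to -0.32), Lgals3 at -0.25 (-0.31 to -0.20) and Hmgb1 at -0.018 lowest.

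Of 10 genes of precursor CD8 cells 6 passed in the same comparison, 1 higher, Lef1 at 0.57 (0.37 to 0.78), and 5 lower, among them Ccr7 at -1.15 (-1.26 to -1.05), Tcf7 at -0.38 (-0.65 to -0.11) and Xcl1 at -0.27. This depended on clonotype size. In clonotypes of 10 or more cells 4 of 7 were higher and 3 lower, with Tcf7 at 0.20 (-0.26 to 0.67) and Slamf6 at 0.89 (0.23 to 1.59). Ccr7 stayed lower there at -1.09 (-1.25 to -0.94). In clonotypes of 1 cell 1 of 9 was higher and 8 lower, with Tcf7 at -0.51 (-0.99 to -0.046). Tcf7 encodes TCF-1, which marks the stem-like pool of CD8 cells. Against WT, RARα-TG CD8 cells had 6 higher and 2 lower of 8 precursor genes that passed: Tcf7 at 2.12 (1.77 to 2.47) and Slamf6 at 1.34 (0.50 to 2.11) were among the highest, and Ccr7 at -1.24 and Il7r at -0.35 were lower. Among CD8 cells in clonotypes of 1 cell, however, 2 of 9 precursor genes were higher in RARα-TG than in WT and 7 lower, with Tcf7 at 0.15 (-0.28 to 0.58) and Slamf6 at -0.23 (-1.39 to 0.86). The values that follow are again over all CD8 cells, RARα-TG against WT. Of the dysfunction factors 14 passed, 6 higher and 8 lower, with a median log2 ratio of -0.52. Bcl6 at 1.24, Eomes at 1.09 and Nfatc2 at 0.53 were highest, and Bhlhe40 at -1.76, Id2 at -1.64 and Rbpj at -1.49 lowest. In clonotypes of 1 cell the first 3 were not separated from WT: Bcl6 at 0.26 (-0.97 to 1.45), Eomes at -0.71 (-2.01 to 0.46) and Nfatc2 at 0.19 (-0.97 to 1.32). Bhlhe40 at -1.30, Id2 at -0.77 and Rbpj at -1.17 stayed lower there, with intervals below 0. Of the other inhibitory receptors, again over all CD8 cells, Klrg1 at 0.85, Cd101 at 0.69 and Cd96 at 0.035 were highest, and Cd5 at -0.93 (-1.38 to -0.51), Klrc1 at -0.78 (-0.96 to -0.60) and Vsir at -0.25 lowest. Of the 12 signal partner genes 6 were higher, led by Csk at 0.74, Dok1 at 0.58 and Fyn at 0.48, and 6 lower, led by Ptpn6 at -0.62, Sh2d1a at -0.61 and Bag6 at -0.56. Of the ligand genes 8 passed, 4 higher and 4 lower, with Pvr at 1.25, Cd86 at 0.65 and Lgals9 at 0.32 highest and Cd80 at -2.52, Lgals3 at -1.43 and Pdcd1lg2 at -1.18 lowest.

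The CD8 cells fell into several clusters whose makeup differed between genotypes, so the members were also compared inside clusters with 50 or more CD8 cells of both genotypes. A cluster led by Gzmf, Gzmd and Gzme held 311 of 843 CD8 cells in WT against 88 of 1180 for RARα-KO, with 2 of 113 for RARα-TG, and a cluster led by Prf1, Serpine2 and Zbtb32 held 194 RARα-KO, 7 WT and 0 RARα-TG cells. The members themselves took part in the clustering, so these values are descriptions. Pdcd1 was lower in RARα-KO in 5 of 5 clusters, with log2 ratios from -1.04 to -0.25 and every interval below 0. Havcr2 was higher in 5 of 5, from 0.067 to 1.14, with 3 intervals above 0. Ctla4 was higher in 4 of 5, from -0.10 to 0.82, with 4 intervals above 0. The difference in Pdcd1, Havcr2 and Ctla4 was therefore also present within clusters. Lag3 was higher in 2 and lower in 3 clusters, the largest value being 1.12 (0.93 to 1.32) in the cluster led by Gzmk, Ccl5 and Gzma, and Tigit was higher in 1 cluster, that same one, at 0.73 (0.50 to 0.97), and lower in 4. Their higher level over all CD8 cells was thus not repeated in most clusters. The Prf1 cluster, which was too small in WT to compare, held Lag3 at 1202 CPM and Havcr2 at 493 CPM in RARα-KO. Both genes were among those that most set this cluster apart from the other cells, so their levels there are no separate finding. For RARα-TG only the cluster led by S1pr1, Cd7 and Tcf7 was large enough (66 against 129 WT cells): Pdcd1 had a log2 ratio of -2.10 (-2.54 to -1.68), Havcr2 -1.40 (-2.63 to -0.32) and Lag3 -5.19 (-10.52 to -2.65), the last from 1 UMI against 57.

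In CD4 cells without Foxp3 RARα-KO stood apart from WT mainly in Ctla4, and RARα-TG in Havcr2, Lag3 and Tigit. Ctla4 was the 1 member whose interval stayed clear of 0 in RARα-KO, at 841 CPM (757 to 931) in WT and 491 CPM (446 to 540.0) in RARα-KO, a log2 ratio of -0.77 (-0.98 to -0.57), opposite in direction to CD8 cells. Foxp3 negative means no Foxp3 UMI, at a median of 3862 UMIs in WT and 4522.5 in RARα-KO. Regulatory T cells whose Foxp3 was missed can thus be among these cells, and their part was not tested. Foxp3 positive cells numbered 120 beside 95 negative in WT and 79 beside 166 in RARα-KO. Pdcd1 stood at 497, 527 and 439 CPM in the order WT, RARα-KO, RARα-TG, and its log2 ratio for RARα-KO was 0.085 (-0.15 to 0.32). So the lower Pdcd1 of RARα-KO CD8 cells was not seen in these cells. Havcr2 stood at 144, 133 and 70.0 CPM, Lag3 at 387, 399 and 191 CPM and Tigit at 489.8, 567 and 352 CPM. In RARα-TG these 3 were lower than in WT, with log2 ratios of -1.04 (-1.69 to -0.41), -1.02 (-1.41 to -0.64) and -0.48 (-0.78 to -0.18). With each clonotype weighted equally the log2 ratio of Havcr2 turned to 0.16. Cd160 rested on 2, 2 and 9 UMIs and Tox on levels of 31.9, 32 and 53.0 CPM. In RARα-KO 0 of 7 members were past 2-fold (over all genes 8%, member median 0.023). In RARα-TG 3 of 7 were, Havcr2 and Lag3 lower and Cd160 higher (over all genes 10.2%, member median -0.18). Cd160 lay below the minimum of 0.1 UMIs per cell that the share over all genes required. Its log2 ratio of 2.07 had an interval that held 0.

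Foxp3 positive CD4 cells held the highest Ctla4 and Tigit of the 3 classes. Ctla4 was at 1724 CPM (1621 to 1833) in WT, 1515 CPM (1408 to 1628) in RARα-KO and 2253 CPM (2146 to 2364) in RARα-TG, log2 ratios of -0.19 (-0.32 to -0.049) and 0.39 (0.27 to 0.50) against WT. The order of the genotypes was thus the reverse of that in CD8 cells, where RARα-KO was highest and RARα-TG lowest. Tigit was at 1021, 1085 and 859 CPM, Lag3 at 409, 424 and 305 CPM and Havcr2 at 125, 75.8 and 133 CPM. Against WT, Havcr2 in RARα-KO had a log2 ratio of -0.72 (-1.33 to -0.14), again opposite to CD8 cells, and in RARα-TG Lag3 had -0.42 (-0.69 to -0.15) and Tigit -0.25 (-0.41 to -0.086). Pdcd1 was at 208, 215 and 173 CPM with all 3 intervals overlapping, Tox at 41.7, 43.0 and 28.6 CPM, and Cd160 was seen as 1 UMI in WT and 0 UMIs elsewhere. No member was past 2-fold in RARα-KO (all genes 9.16%, member median 0.044) or in RARα-TG (all genes 8.82%, member median -0.26). For Cd160 the ratio was not formed where both groups lay at or under 3 UMIs.

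Set against Foxp3 negative CD4 cells of the same genotype, Foxp3 positive cells had less Pdcd1 and more Tigit and Ctla4 in each genotype. The log2 ratios of Pdcd1 were, for WT, RARα-KO and RARα-TG in turn, -1.25, -1.29 and -1.34. Those of Tigit were 1.06, 0.94 and 1.29, and those of Ctla4 were 1.04, 1.62 and 1.55. High Ctla4 and Tigit are known of regulatory T cells, and here all 3 samples had them. Members past 2-fold were 3 in WT (all genes 16.2%), 2 in RARα-KO (all genes 16.9%) and 4 in RARα-TG (all genes 14.9%), where Cd160 was counted with 9 UMIs against 0. CD8 cells against Foxp3 negative CD4 cells had more Cd160 and less Ctla4 and Tox: the log2 ratios were 4.07, 5.19 and 1.97 for Cd160, -2.17, -0.77 and -3.36 for Ctla4 and -1.09, -2.85 and -1.41 for Tox. Members past 2-fold here were 3 in WT (Cd160, Ctla4 and Tox; all genes 12%), 3 in RARα-KO (Cd160, Tox and Havcr2; all genes 7.97%) and 6 in RARα-TG (all genes 17.8%).

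Ordered by level over the 9 sets of cells, Pdcd1 was highest in WT CD8 cells, whose interval lay above all others. Then came the 2 Foxp3 negative sets of RARα-KO and WT, CD8 cells of RARα-KO and Foxp3 negative cells of RARα-TG, whose neighboring intervals overlapped. The lowest were CD8 cells of RARα-TG and the 3 Foxp3 positive sets, which overlapped in turn. Havcr2 and Lag3 were both highest in RARα-KO CD8 cells and lowest in RARα-TG CD8 cells, with overlapping neighbors from WT CD8 cells down through 5 further sets for Lag3 and 6 for Havcr2. The CD8 cells thus spanned the whole range of these receptors. Ctla4 ran from Foxp3 positive through Foxp3 negative to CD8 cells without exception, and only WT and RARα-KO among the Foxp3 positive, and WT and RARα-TG among the Foxp3 negative sets overlapped. Tigit was highest in the 3 Foxp3 positive sets, and Cd160 in the 3 CD8 sets, whose intervals overlapped each other. Tox was lowest in the 3 CD8 sets, and only RARα-KO CD8 cells lay apart from the neighbor above.

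Clonal expansion was compared by the number of T cells of 1 genotype that shared a clonotype. WT CD8 cells counted 122 in clonotypes of 1 cell, 201 in 52 clonotypes of 2 to 9 and 467 in 19 of 10 or more, and RARα-KO counted 94, 198 in 52, and 680 in 24. RARα-TG had 81 single cells, 13 in 7 clonotypes of 2 to 9 and none of 10 or more. In WT, Pdcd1 was at 454, 837 and 850.0 CPM over the 3 sizes, Havcr2 at 48.4, 144 and 189 CPM and Lag3 at 212, 512 and 511 CPM. All 3 were lowest in single cells, with log2 ratios of 0.91 (0.73 to 1.08), 1.96 (1.45 to 2.53) and 1.27 (1.02 to 1.53) between the largest and the single clonotypes. Ctla4 peaked in the middle class at 132, 241 and 169.6 CPM, and Tigit was at 319, 308 and 301.9 CPM with a log2 ratio of -0.08 (-0.30 to 0.14). Tox went the other way, at 25.7, 17.1 and 12.4 CPM, with -1.05 (-1.90 to -0.13) as its log2 ratio, although thinned to 1000 UMIs this was 1.23 with an interval that held 0. Among RARα-KO cells, Havcr2 was at 167, 302.9 and 320.2 CPM and Lag3 at 294, 713 and 651 CPM, log2 ratios of 0.94 (0.63 to 1.27) and 1.15 (0.91 to 1.39). Pdcd1 was at 368, 403 and 441 CPM, a smaller log2 ratio than in WT, at 0.26 (0.05 to 0.48). That the 2 genotypes differed in this slope was not tested. Cd160 had a log2 ratio of 0.95 (0.31 to 1.66) and Tox, below the UMI minimum here, -1.99 (-3.37 to -0.46). Members past 2-fold were 3 in WT (Havcr2, Lag3 and Tox; all genes 7.53%, member median 0.37) and 2 in RARα-KO (Lag3 and Tox; all genes 5.63%, member median 0.31). Cells in clonotypes of 1 also had fewer UMIs, median 4250.5 against 6017 in WT and 3936.5 against 5488.5 in RARα-KO.

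**Figure D3:**
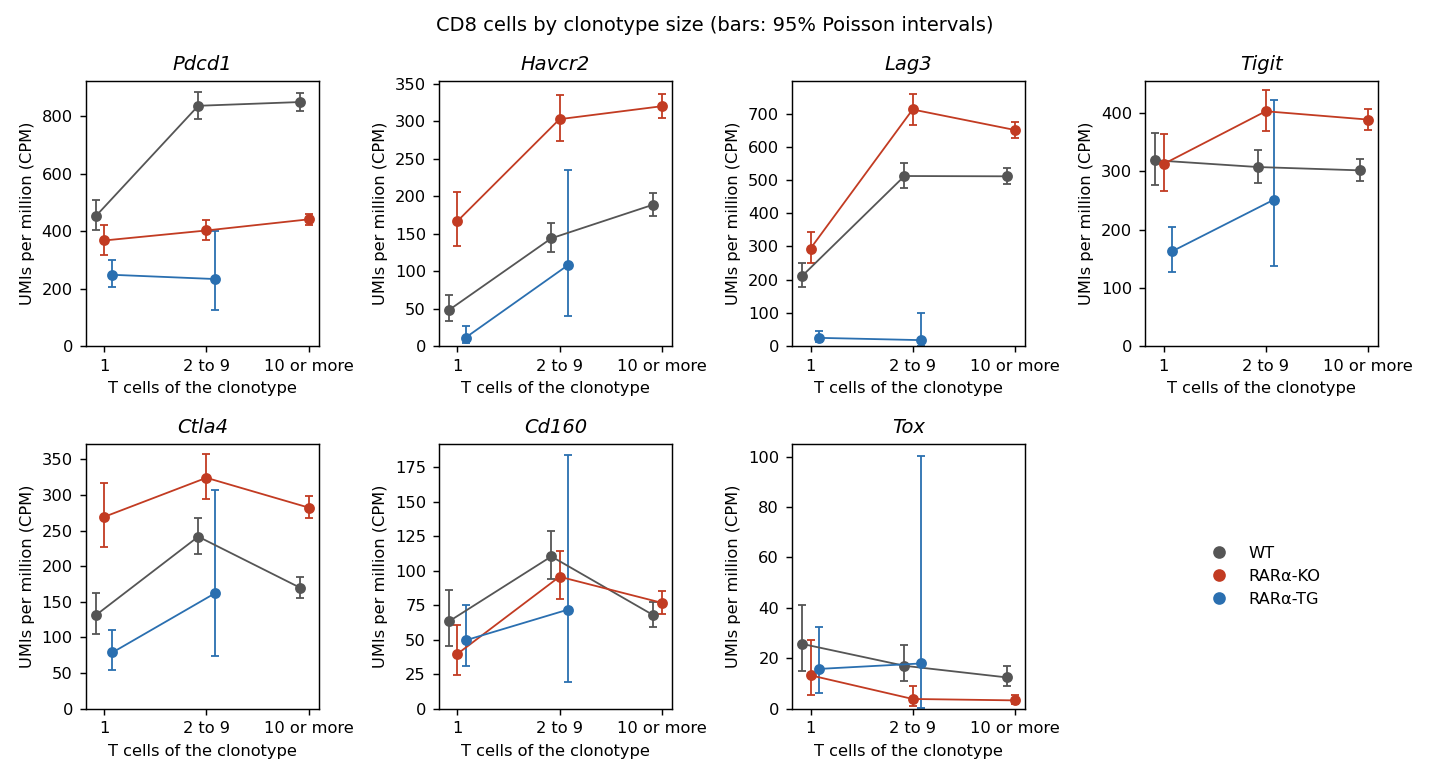
Level of each member (CPM, linear axes from 0) in CD8 cells by clonotype size (1 cell, 2 to 9, 10 or more) for the 3 genotypes, bars being 95% Poisson intervals. Havcr2 and Lag3 are lowest in single-cell clonotypes of WT (48.4 and 212 CPM) and of RARα-KO (167 and 294 CPM).

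Within 1 size the genotypes still differed. In clonotypes of 10 or more, Pdcd1 of RARα-KO against WT had a log2 ratio of -0.95 (-1.03 to -0.86), Havcr2 0.76 (0.62 to 0.90), Ctla4 0.73 (0.59 to 0.88), Tigit 0.37 (0.25 to 0.48) and Lag3 0.35 (0.26 to 0.44). Only Tox, at -1.90 (-2.86 to -1.01), was past 2-fold (1 of 7, all genes 3.05%, member median 0.35). In clonotypes of 1 cell, Havcr2 was already higher in RARα-KO at 1.79 (1.19 to 2.42), and so was Ctla4 at 1.03 (0.64 to 1.43), while Pdcd1 was at -0.30 (-0.57 to -0.038). Both receptors were past 2-fold, 2 of 7 members (all genes 11.5%, member median -0.029). The difference in Havcr2 and Ctla4 was thus also seen in cells whose clonotype was captured only once in the genotype. In RARα-TG single-cell clonotypes 7 of 7 members were below WT, 5 of them with an interval below 0, while over all genes 3102 of 6198 were lower. Past 2-fold were Lag3 at -3.09 (-4.13 to -2.21) and Havcr2 at -2.10 (-3.82 to -0.73) (2 of 7, all genes 11.9%, member median -0.87), and Pdcd1 was at -0.87 (-1.20 to -0.55).

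Single clonotypes with 10 or more CD8 cells numbered 19 in WT (467 cells) and 21 in RARα-KO (654 cells, since 3 clonotypes of RARα-KO reached that size only with T cells outside the CD8 gate). They are not replicates of a genotype, since each set came from 1 sample, but they give the spread behind the sums. Pdcd1 ranged from 359.7 to 1184 CPM, median 816 in WT, and from 188 to 746 CPM, median 437 in RARα-KO. Of the WT clonotypes 13 of 19 lay above every RARα-KO clonotype, 6 of 21 RARα-KO clonotypes lay below every WT clonotype, and 0 RARα-KO clonotypes reached the WT median. Havcr2 ranged from 37.9 to 500.4 CPM, median 172 in WT, and from 89.5 to 593 CPM, median 305 in RARα-KO, of which 19 of 21 exceeded the WT median. Ctla4 ranged from 88.5 to 230.2 CPM, median 169 in WT, and from 85.4 to 400.4 CPM, median 290.2 in RARα-KO, with 13 of 21 above every WT clonotype. The ranges of all 3 overlapped between the genotypes. Lag3 ranged from 63.2 to 879 CPM, median 579 in WT, and from 251 to 1269 CPM, median 676 in RARα-KO. Tigit ranged from 101 to 521 CPM, median 319.5 in WT, and from 283 to 707 CPM, median 398 in RARα-KO. Tox was at 0 UMIs in 7 of 19 WT and 12 of 21 RARα-KO clonotypes.

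**Figure D4:**
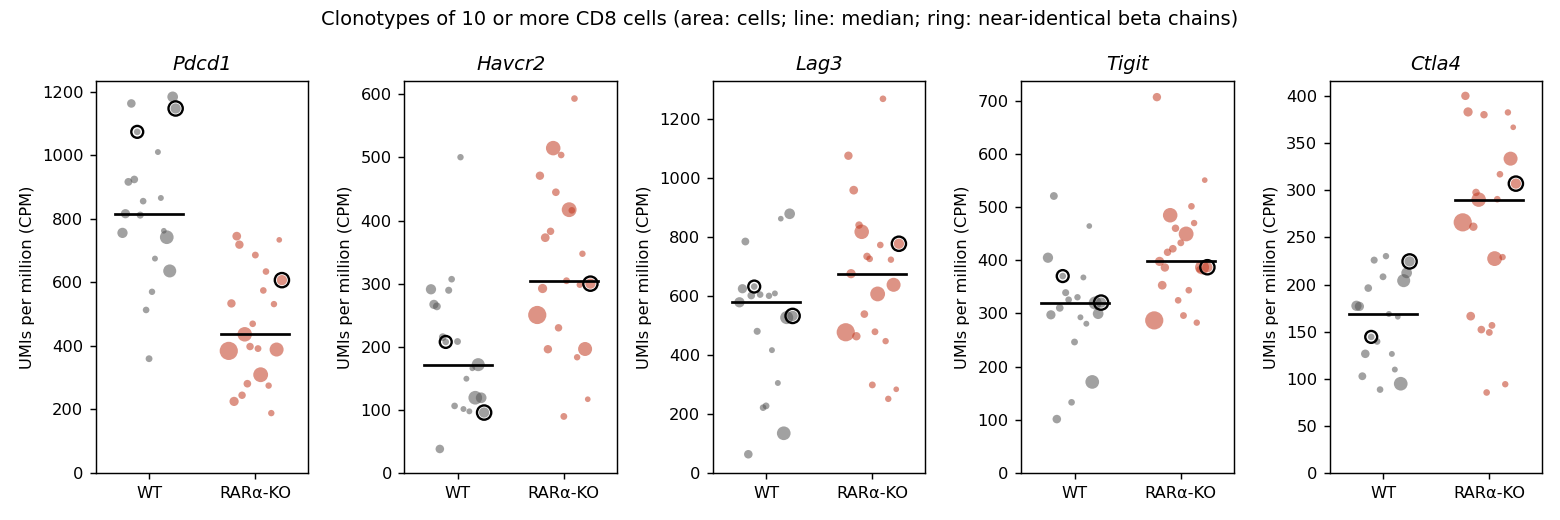
Level of Pdcd1, Havcr2, Lag3, Tigit and Ctla4 (CPM) in each clonotype of 10 or more CD8 cells, 19 of WT and 21 of RARα-KO, 1 point per clonotype with its area in proportion to the cells, a line at the median and rings on clonotypes with nearly the same beta chain in both genotypes. For Pdcd1 the WT points have a median of 816 CPM and the RARα-KO points of 437 CPM.

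Some clonotypes carried nearly the same receptor beta chain in WT and RARα-KO, which sets the members side by side in cells with a like beta chain. Alpha chains were not compared, and whether these receptors bind the same antigen was not tested. The V gene TRBV16 was used by 13 of the 21 RARα-KO clonotypes (461 cells) and 2 of the 19 WT clonotypes (51 cells). The CDR3 of the beta chain is printed 5′ to 3′ in lower case, as the deposited receptor table gives it, and in the first set, chosen after the values were seen, capitals mark bases that differ from WT clonotype8.
WT clonotype8 (36 cells): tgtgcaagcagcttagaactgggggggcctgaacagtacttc
WT clonotype25 (15 cells): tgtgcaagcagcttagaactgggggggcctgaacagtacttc
RARα-KO clonotype9 (36 cells): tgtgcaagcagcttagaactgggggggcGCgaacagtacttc
Pdcd1 was at 1148 CPM (1016 to 1292) and 1074 CPM (889.9 to 1285) in the WT pair and at 607 CPM (519 to 706) in the RARα-KO clonotype. Both WT values lay above the RARα-KO value with no overlap of intervals. Over 36 RARα-KO against 51 WT cells, the log2 ratio of RARα-KO against WT was -0.89 (-1.16 to -0.63) for Pdcd1, 1.20 (0.66 to 1.75) for Havcr2, 0.46 (0.18 to 0.75) for Lag3 and 0.62 (0.15 to 1.10) for Ctla4. These have the directions of the whole CD8 set. Tigit at 0.20 (-0.19 to 0.59), Cd160 at -0.37 (-1.59 to 0.79) and Tox at -1.12 (-3.22 to 0.64) were not separated. Within RARα-KO, TRBV16 cells had less Pdcd1 than cells of other V genes, at 383 and 494 CPM, a log2 ratio of -0.37 (-0.48 to -0.25).

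Further clonotypes show how far cells of 1 genotype can differ.
WT clonotype7 (39 cells, TRBV5): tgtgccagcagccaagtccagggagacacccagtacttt
WT clonotype5 (64 cells, TRBV31): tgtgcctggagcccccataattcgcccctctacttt
RARα-KO clonotype1 (113 cells, TRBV16): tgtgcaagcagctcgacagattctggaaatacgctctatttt
RARα-KO clonotype4 (67 cells, TRBV16): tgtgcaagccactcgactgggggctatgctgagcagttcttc
RARα-KO clonotype23 (16 cells, TRBV16): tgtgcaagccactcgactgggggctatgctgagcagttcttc
WT clonotype7 had the highest Pdcd1 at 1184 CPM (1067 to 1312). WT clonotype5, the largest of WT, had Pdcd1 at 742 CPM (652 to 842) but Lag3 at only 134 CPM (97.7 to 180.4), so a high Pdcd1 did not always come with a high Lag3. RARα-KO clonotype1, the largest of all, had Pdcd1 at 384 CPM (347 to 424), Havcr2 at 250.3 CPM (220.5 to 283) and Lag3 at 477 CPM (435 to 521). RARα-KO clonotype4 and clonotype23 shared an identical beta chain CDR3 and still differed: Pdcd1 was at 389 and 686 CPM, Havcr2 at 196 and 89.5 CPM, and Lag3 at 638 and 298 CPM. Cells of 1 genotype with the same beta chain CDR3 thus also differed in the members.

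Single CD8 cells often held several of the members. UMIs of 3 or more of the 7 were found in 71.9% (68.7 to 74.9) of the CD8 cells of WT, 77.6% (75.1 to 80.0) of those of RARα-KO and 19.5% (12.6 to 28.0) of those of RARα-TG, with a mean of 3.49, 3.70 and 1.43 members per cell. Thinned to 1000 UMIs, the shares were 15.2% (12.8 to 17.8), 18.7% (16.5 to 21.0) and 1.80% (0.22 to 6.36), in the same order. The thinned intervals of WT and RARα-KO overlapped. All 5 of Pdcd1, Havcr2, Lag3, Tigit and Ctla4 were found together in 19.9% (WT), 26.9% (RARα-KO) and 0 of 113 cells (RARα-TG). For RARα-TG a floor of 3 cells is 2.65%, and the interval of the share reached 3.21%. In CD4 cells without Foxp3 the share with 3 or more was 52.6% (42.1 to 63.0), 65.1% (57.3 to 72.3) and 37.8% (28.8 to 47.5), and with Foxp3 it was 67.5% (58.3 to 75.8), 78.5% (67.8 to 86.9) and 65.3% (57.1 to 72.9) in WT, RARα-KO and RARα-TG. As sequenced, the genotypes stood in the same order in all 3 classes, with overlapping intervals of WT with either altered genotype in both CD4 classes. Thinned, Foxp3 positive cells of RARα-TG (22.7%) stood above those of WT (21.0%). For comparison, MC38 or stromal cells of WT, which should lack the receptors, had a UMI of Pdcd1 in 2.21% and of Lag3 in 6.62% of cells at a median of 30004 UMIs. The 7.08% of RARα-TG CD8 cells with a Lag3 UMI was not clearly above that background share, although their Lag3 level of 28.2 CPM was above the 2.66 CPM of the MC38 or stromal cells.

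**Figure D5:**
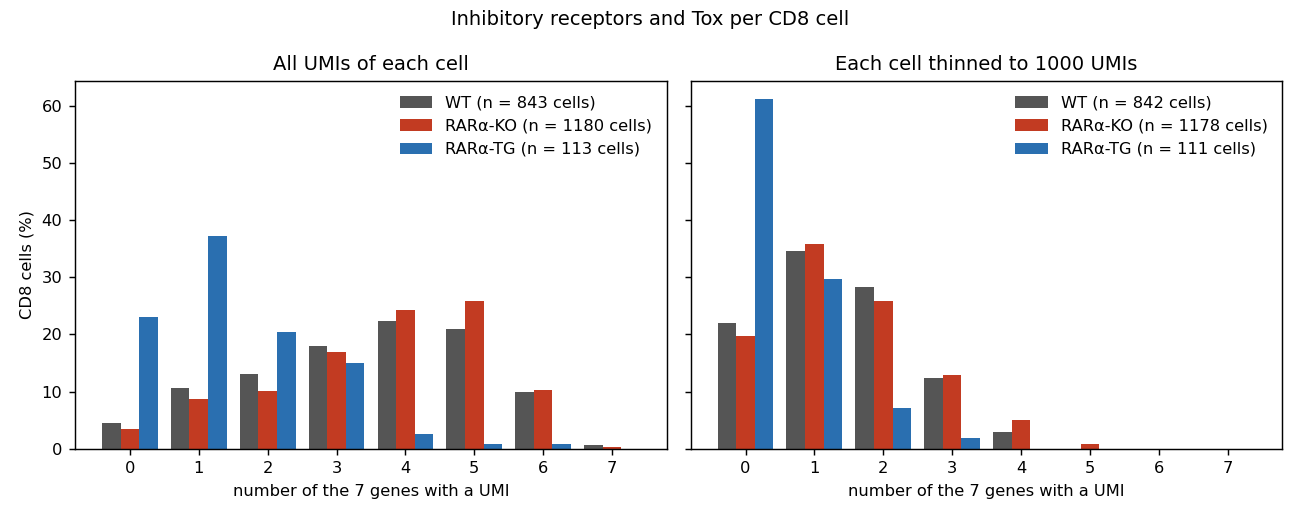
Share of CD8 cells (percent) by the number of members with a UMI, 0 to 7, in WT, RARα-KO and RARα-TG, as sequenced and thinned to 1000 UMIs per cell. In the cells as sequenced, RARα-KO has the largest share with 3 or more members (77.6%), before WT (71.9%) and RARα-TG (19.5%).

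Pairs of members were then set beside the product of their shares, where a quotient of 1 means no tie between the genes. Cells of 1 library differ in depth, which alone lifts the quotient, so for some pairs it is also given thinned. Havcr2 and Lag3 were found together in 38.3% of WT and 52.5% of RARα-KO CD8 cells against products of 29.7 and 43.5%, quotients of 1.29 and 1.21, or 1.16 and 1.28 thinned. The pair of Pdcd1 and Havcr2 had quotients of 1.13 and 1.06, closer to 1. A quotient cannot exceed 1 divided by the larger share, and in WT Pdcd1 was found in more cells than Lag3. The quotients of these pairs are therefore not on the same scale in WT. Across cells the Pearson correlation of log(1 + UMIs per 10000), here without regression on depth, was for Havcr2 with Lag3 0.313 in 843 WT and 0.415 in 1180 RARα-KO cells. That of Pdcd1 with Lag3 was 0.317 and 0.164, and that of Pdcd1 with Havcr2 0.0862 and 0.00869, so that Havcr2 was correlated more with Lag3 than with Pdcd1. The pair of Lag3 and the precursor gene Tcf7 lay below the product (quotients 0.504 and 0.440, thinned 0.151 and 0.133) and so did Havcr2 and Tcf7 (0.384 and 0.430). Pdcd1 and Tcf7 were at 0.630 and 0.808. Tox and Tcf7 lay above the product at 1.52 and 1.72, from 14 and 6 cells with both. These are descriptions over cells of 1 sample each.

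By the mean of the correlations in WT and RARα-KO CD8 cells over 6089 genes, the genes most like Havcr2 were Gzmb (0.332), which encodes granzyme B, Lag3 (0.316) and Aldoa (0.291). Those most like Lag3 were Nkg7 (0.432), Sdf4 (0.429) and Ptms (0.413). Ptms neighbors Lag3 on chromosome 6. Pdcd1 was most like Litaf (0.274), Fxyd5 (0.265) and the chemokine receptor gene Cxcr6 (0.255). Ctla4 was most like the costimulatory receptor gene Icos (0.295), Cxcr6 and Lag3, and Tigit most like Lag3 (0.267), Icos and Sh2d2a. Cd160 was most like Xcl1 (0.269), Bcl2a1d and Crtam, and Tox most like Ikzf2 (0.168), Zmynd11 and Fcer1g. All of these correlations are weak in sparse counts.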

How the data were processed

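The deposited matrix held UMI counts of genes and hashtags per barcode, which the authors made with Cell Ranger (6.1.0 per the labels, against mm10), and a receptor table gave clonotypes. Barcodes were not yet filtered. Cells were called from the counts (3000 expected cells, then barcodes of 500 or more UMIs tested against empty droplets at a false discovery rate of 0.01). Hashtags were assigned with HTODemux (Seurat 5.3.0, R 4.3.3, quantile 0.99), doublets of 2 hashtags were left out, and cells were clustered with scanpy 1.11.5 (2000 variable genes, 30 principal components, 15 neighbors, Leiden resolution 1, leidenalg 0.10.2). T cell clusters were those where over 50% of barcodes had a clonotype. In Python 3.11.15, UMIs were summed per set of cells and divided by all gene UMIs of those cells. Levels have exact Poisson, shares Clopper-Pearson and ratios exact binomial 95% intervals (scipy 1.17.1). Depth per genotype was 17766060 gene UMIs in 1927 WT cells, 16191256 in 2103 RARα-KO cells and 4011140 in 895 RARα-TG cells. Genes that reached 0.1 UMIs per cell in either set entered the counts over all genes. A sum of 0 was set to 3 UMIs and its ratio counted as a bound, and no ratio was formed where both sums were 3 UMIs or fewer. Clonotype size counted T cells of 1 genotype.

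The members and lists were chosen with earlier results of these data known. The genes named beside the members are the 3 highest and 3 lowest log2 ratios of a list that passed the minimum, and for each member the 3 genes with the highest correlation of log(1 + UMIs per 10000) after regression on depth. 1 of the listed genes and 1 of the clonotypes are not reported here. Alternatives changed the T cell definition, the CD8 gate, the hashtag rule, depth filters, thinning, the denominator, the clonotype definition and its weighting.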

Additional observations from a re-analysis of the deposited data

Results flagged for a closer look

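For 2 members the log2 ratios against WT had intervals on opposite sides of 0 in different classes of T cells. Havcr2 in RARα-KO was at 0.92 in CD8 cells and -0.72 in Foxp3 positive CD4 cells. Ctla4 in RARα-KO was at 0.62 in CD8 cells, -0.77 in Foxp3 negative CD4 cells and -0.19 in Foxp3 positive CD4 cells. Ctla4 in RARα-TG was at 0.39 in Foxp3 positive CD4 cells and -1.33 in CD8 cells, where it was 0.75 with the gate on Cd8a or Cd8b1 and so no longer differed in sign. With 1 sample per genotype the difference between classes was not tested, and the intervals cover counting error only. The Foxp3 negative class can also hold regulatory T cells whose Foxp3 was missed.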

How the results depend on the processing

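Of 53 member log2 ratios, 31 had an interval that excluded 0, and 26 of these kept their sign under every alternative tried. The members in CD8 cells of RARα-KO all kept their direction where the interval excluded 0. The median over the members in CD8 cells of RARα-KO (0.29) was 0.50 without the cluster with the highest Gzmf, 0.062 with each clonotype weighted equally and 0.086 with cells assigned by 90% or more of hashtag UMIs. The last setting left 17 WT CD8, 3 WT Foxp3 negative and 13 WT Foxp3 positive cells and no WT CD8 cell in large clonotypes, so it gave no value by clonotype size in WT. It gave medians of 0.67 in Foxp3 negative and 0.12 in Foxp3 positive cells of RARα-TG (-0.18 and -0.26 as reported), turned Havcr2 (1.15) and Tigit (0.67) in Foxp3 negative and Tigit (0.12) in Foxp3 positive cells of RARα-TG, and put 100% of WT CD8 cells at 3 or more members. Equal clonotype weights gave 0.16 for Havcr2 and for the median in Foxp3 negative cells of RARα-TG. The gate on Cd8a or Cd8b1 gave 0.75 for Ctla4 and -0.38 for the median in CD8 cells of RARα-TG (-1.33 as reported), and shares with 3 or more members of 67.8% in WT and 74.0% in RARα-KO. Without the Gzmf cluster the WT share was 57.9%. Thinning to 1000 UMIs gave shares of 18.7% (RARα-KO), 15.2% (WT) and 1.80% (RARα-TG), and 1.23 for Tox and for the median in WT by clonotype size (0.37 as reported), which was 0.77 with clonotypes defined by the beta chain CDR3. The cause of these shifts was not tested. Leaving out T cells with a Lyz2, C1qa, C1qb or C1qc UMI, an alternative chosen after seeing the data, turned none of the ratios whose interval excluded 0. No paired analysis was possible because there was 1 sample per genotype. Tox and Cd160 rested on few UMIs in several sets of cells.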

Other observations

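The ligands of the members were read in the other cells of the tumors. In myeloid cells (77 WT, 127 RARα-KO and 35 RARα-TG cells) Cd274, which encodes PD-L1, was at 323 CPM (278 to 373), 718 CPM (665 to 774) and 106 CPM (69.0 to 155). It was thus highest beside the RARα-KO T cells and lowest beside the RARα-TG T cells, in 1 sample each. Dendritic cells (21, 27 and 4 cells) held Cd274 at 599, 478 and 207 CPM and Pdcd1lg2, which encodes PD-L2, at 195, 173 and 148 CPM. Cd86, a ligand of CTLA-4, was at 356, 308 and 175 CPM in myeloid cells, and Lgals9, which encodes galectin-9, at 179, 149.8 and 146 CPM. In MC38 or stromal cells Cd274 was at 46.6, 115 and 5.34 CPM. Fgl1, a ligand of LAG-3, was close to absent from the cells. Havcr2 was also found in myeloid cells, at 108, 129 and 109.7 CPM, where 36.4, 44.9 and 45.7% of cells had a UMI.

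T cells in neither gate numbered 393, 295 and 410 in the order WT, RARα-KO, RARα-TG. Most held no UMI of Cd8a, Cd8b1 or Cd4 (283, 158 and 332 cells), and 34.3, 27.2 and 48.8% of these held Foxp3. Ctla4 stood there at 1005 CPM (939 to 1074), 811 CPM (734 to 893) and 1397 CPM (1327 to 1469.6). Pdcd1 stood there at 270.1 CPM (236 to 307), 207 CPM (169 to 251) and 201 CPM (175 to 229.8). In cells with Cd8b1 alone (88, 111 and 53 cells) Ctla4 was at 269 CPM (212 to 336), 287 CPM (235 to 347) and 1102 CPM (958 to 1261), and 8, 1 and 19 of them held Foxp3.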
